A study of Mus musculus with 3 samples.

Results

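The genes described here encode the receptors, ligands and signal transducers of BAFF and CD40, which keep mature B cells alive and activate them. They were chosen by gene name, and all 10 (Tnfrsf13b, Tnfrsf13c, Cd40, Tnfsf13b, Tnfsf13, Traf2, Traf3, Birc3, Map3k14 and Nfkb2) were found once each among the 27088 genes of the deposited table. RNA was sequenced from B cells that were sorted by flow cytometry from the spleens of female BALB/c mice, 6 weeks old when purchased. The labels give an age of 13 weeks, and the time between purchase and day 0 is not given in the sources used here. In the PBS and SJMHE1 groups, allergic rhinitis was induced with 10 μg ovalbumin (OVA) and 2 mg aluminum hydroxide, given intraperitoneally on days 0, 7 and 14, and with 100 μg OVA given into the nose daily from day 21 to 27 and from day 29 to 35. On days 0, 14 and 28 the PBS group was injected subcutaneously with PBS, and the SJMHE1 group with 10 μg SJMHE1, a peptide of the parasitic worm Schistosoma japonicum, emulsified in incomplete Freund's adjuvant, so that the 2 groups differed in the peptide and in this adjuvant. All mice were killed on day 36. The samples of 3 mice were mixed in each group, which gave 1 library per group, and the library of the healthy Control group was not analysed here. No difference below has a replicate check, no test across mice was possible, and the intervals given cover counting error only.

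BAFF, the product of Tnfsf13b, is a cytokine of the TNF family that binds BAFF receptor and TACI on B cells, and APRIL, the product of Tnfsf13, binds TACI and BCMA. CD40 on B cells binds CD40 ligand on activated T helper cells. In a resting B cell, TRAF3 together with TRAF2 and the ubiquitin ligases cIAP1 and cIAP2 keeps the kinase NIK at a low level by having it degraded. When BAFF receptor or CD40 is engaged, TRAF3 is degraded, NIK accumulates, and the precursor encoded by Nfkb2 is processed to an NF-kB subunit that acts with RelB, which is called the non-canonical NF-kB pathway. CD40 also activates the canonical pathway, which works through RelA and c-Rel.

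NF-kB binds short DNA elements, and Nfkb2 is known as a target of NF-kB, so the promoters of the 10 genes were searched for the kB consensus, a motif of 10 bases, on both strands. The promoters were those of RefSeq on GRCm38.p6, from 250 bases before to 50 bases after each transcription start, and 9 of the 10 genes had at least 1 of them, 12 in all. Of the 32851 promoters of this length in the mouse, 8.46% held a match, and 1.22% held 2 or more. By gene, 9.55% of the 27025 genes with such a promoter held a match. Of the 9 genes here, Traf3 and Nfkb2, which has several promoters, held matches, and the other 7 held none. The matches are shown because these are the stretches of the 12 promoters that carry the letters of the motif, which are in capitals with 10 bases on either side, written on the strand of the gene.
Traf3: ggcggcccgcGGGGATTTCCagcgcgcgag
Nfkb2 match A: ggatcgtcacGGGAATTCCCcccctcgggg
Nfkb2 match B: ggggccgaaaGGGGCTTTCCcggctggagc
Nfkb2 match C: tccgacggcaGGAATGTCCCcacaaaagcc
Nfkb2 match D: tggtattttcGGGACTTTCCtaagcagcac
The Traf3 match lies at chr12:111166360-111166369 on the plus strand and begins 10 bases before the start of the gene. Matches A and B of Nfkb2, at chr19:46304698-46304707 and chr19:46304726-46304735 on the plus strand, begin 39 and 11 bases before 1 start and lie in a 5′ untranslated exon of transcripts that start further upstream. A match on the minus strand that overlaps match A begins 1 base further on. Match C, at chr19:46305459-46305468, is read on the minus strand and lies in an intron, 236 bases before another start of the gene. Match D, at chr19:46305705-46305714 on the plus strand, begins 10 bases after that start in an untranslated exon, and it also falls in the window of a further start. A match describes the sequence and does not show that a factor is bound there.

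Total counts were 48267168 for the PBS library, against 51280237 for the SJMHE1 library. Levels are given as FPKM, fragments per kilobase of transcript and per 1000000 mapped fragments, and differences as log2 ratios of FPKM (SJMHE1 over PBS). Where the 95% counting interval (exact, Clopper-Pearson) of a ratio is given, it follows in parentheses. A gene entered the comparison if either library had an FPKM of 1 or more and neither value was 0. A log2 ratio above 1 or below -1, which is a 2-fold difference, is called past the threshold. Among the 12433 genes compared, the median log2 ratio was -0.01 and the middle 90% of genes lay between -0.82 and 0.64. The 10 B cell markers were abundant in both libraries, with Cd79a at an FPKM of 835 in each, and their median log2 ratio was 0.0082. Markers of other cells were also detected, and none of them was at 0 counts in either library. Summed FPKM values for PBS and SJMHE1 were 652 and 548 for the 6 plasma cell markers, 322 and 430 for the 7 neutrophil markers, and 15.4 and 6.75 for the 6 NK cell markers. Of the 10 T cell markers, 9 had a log2 ratio below -1, and their summed FPKM was 56.2 and 31.8, of which Lck alone held 27.9 and 25.2.

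The receptors and transducers were expressed well above the ligands in both libraries. Of the 10 genes, 8 passed the filter on low values. Of these 8, 0 had a log2 ratio above 1 and 0 had a ratio below -1, where 2.43% and 3.57% of all genes compared did. Their log2 ratios ran from -0.11 for Map3k14 to 0.39 for Nfkb2, with a median of 0.15 beside -0.01 for all genes compared. The ratio was above 0 for 6 of the 8 genes, and it was above 0 for 47.7% of all genes compared. The counting interval lay wholly above 0 for 5 genes (Tnfrsf13c, Cd40, Traf2, Traf3 and Nfkb2) and wholly below 0 for 2 genes (Birc3 and Map3k14), where this was so for 30.9% and 34.4% of all genes compared. An interval without 0 was thus found for 7 of the 8 genes and for 65.3% of all genes compared. These counts depended on the scaling. With both libraries rescaled to the same FPKM sum, the interval lay wholly above 0 for 6 genes, Tnfrsf13b now among them, and wholly below 0 for 0 genes, where this was so for 43.2% and 23.9% of all genes compared. At this depth most genes differed between the 2 libraries by more than counting error, and an interval without 0 says nothing about the spread between mice.

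**Figure D1:**
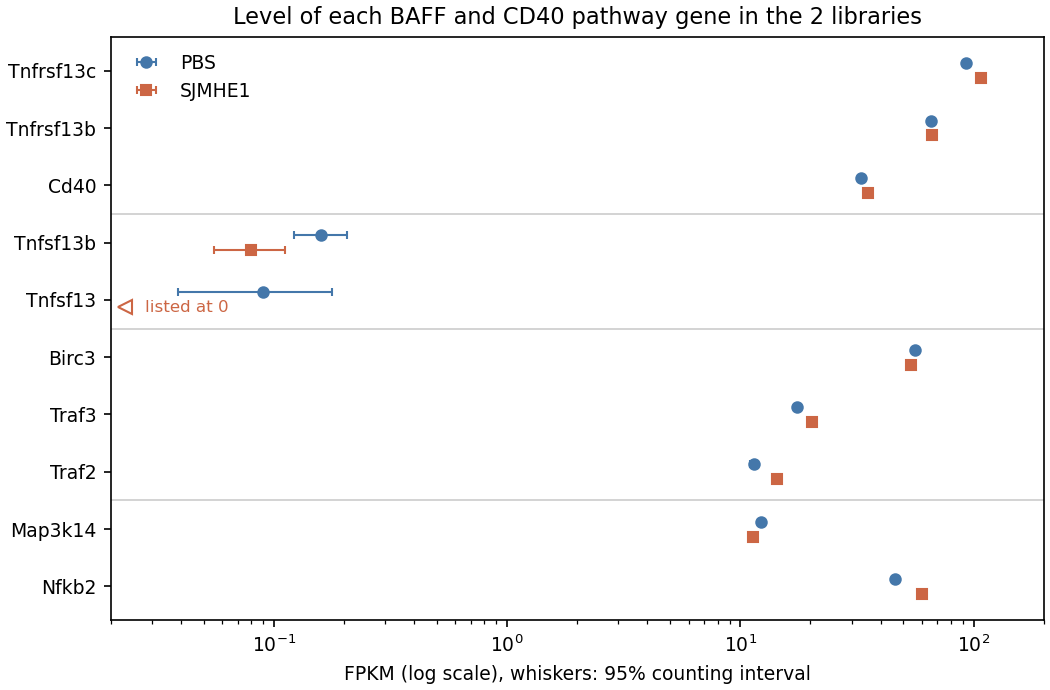
FPKM on a log axis of each of the 10 genes in PBS B cells (circles) and SJMHE1 B cells (squares), with 95% counting intervals as whiskers; lines part receptors, ligands, adaptors with the ubiquitin ligase, and kinase with NF-kB subunit. The 8 receptors and transducers sit above an FPKM of 10 in both libraries, and both ligands sit below 1, with Tnfsf13 listed at 0 in SJMHE1 B cells.

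Tnfrsf13c, which encodes BAFF receptor, was the most abundant of the 10 genes in both libraries. It had 10403 counts and an FPKM of 92.5 in PBS B cells, and 12829 counts and an FPKM of 108 in SJMHE1 B cells. This gave a log2 ratio of 0.22 (0.18 to 0.26), a level 1.16 times that of the PBS library, and 79.9% of all genes compared had a lower ratio. On chromosome 15, the gene spans 82221743 to 82224353 (minus strand), in the coordinates of the table, whose build is mm10. Tnfrsf13b, which encodes TACI, a receptor for both BAFF and APRIL, had the second highest level in both libraries. Its FPKM was 65.6 with 10207 counts in PBS B cells and 66.5 with 10963 counts in SJMHE1 B cells. The log2 ratio of 0.02 (-0.02 to 0.06) was within counting error, but with rescaling it was 0.10 (0.065 to 0.14). Tnfrsf13b spans 61126755 to 61149372 of chromosome 11 (plus strand). The ratio of Tnfrsf13c to Tnfrsf13b, taken on the FPKM scale within a library, was 1.41 (1.37 to 1.45) in PBS B cells and 1.62 (1.58 to 1.66) in SJMHE1 B cells. The level of BAFF receptor RNA was thus higher relative to that of TACI in SJMHE1 B cells, by more than counting error.

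Cd40 had an FPKM of 33.1 with 6189 counts in PBS B cells and 35.2 with 6973 counts in SJMHE1 B cells. Its log2 ratio was 0.09 (0.04 to 0.14), and Cd40 had rank 5 of the 10 genes in both. Cd40 spans 165055627 to 165072948 of chromosome 2 (plus strand). Of the remaining receptors of this group, Tnfrsf17, which encodes BCMA and is known from plasma cells, was low. Its FPKM was 1.93 with 87 counts in PBS B cells and 0.87 with 42 counts in SJMHE1 B cells. The log2 ratio of -1.15 (-1.70 to -0.59) was past the threshold, but its interval was not. Beside it, the 6 plasma cell markers had log2 ratios between -0.45 for Sdc1 and 0.41 for Xbp1, none past the threshold. Their median was -0.19, with 1 above and 5 below 0, and Jchain had an FPKM of 388 and 313. The part of plasma cells in the Tnfrsf17 result was not tested. In bulk RNA, fewer cells of a type and less RNA per cell cannot be told apart.

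The ligands were near the limit of detection in these B cells. Tnfsf13b, which encodes BAFF, had 62 counts and an FPKM of 0.16 in PBS B cells and 34 counts and an FPKM of 0.08 in SJMHE1 B cells. The log2 ratio, taken from FPKM values rounded to 2 decimals, was -1.0 with a counting interval from -1.60 to -0.32, and the gene, which spans 10006467 to 10039072 of chromosome 8 (plus strand), did not pass the filter. BAFF is known mainly as a product of myeloid and stromal cells. Of the 11 macrophage and monocyte markers, 10 were compared, with 3 above and 1 below the threshold. Their median log2 ratio was 0.30, with 6 above and 4 below 0. The summed FPKM of the 11 was 120 in PBS B cells and 66.3 in SJMHE1 B cells. Lyz2 held most of that sum, with an FPKM of 88.8 and 37.4. Of the 7 dendritic cell markers, 3 were compared and all 3 had a ratio below 0, and the summed FPKM was 8.50 and 3.94. Siglech and Flt3 passed the filter only through the PBS library, where they were higher, so this count depends on the filter. Of the markers under an FPKM of 1 in both libraries, Zbtb46 had a ratio of 0.56 with 207 and 326 counts. Cd209a, Clec9a and Xcr1, also under 1, had ratios below 0. Neutrophils are myeloid cells as well, and their 7 markers had the higher sum in SJMHE1 B cells, 322 and 430. S100a9, with an FPKM of 196 and 266, and S100a8, with 73.6 and 115, held most of both sums. The median log2 ratio of the 7 neutrophil markers was 0.016, with 4 above and 3 below 0. The stromal marker Col1a1 had 15 counts and 7 counts. The part of these cells in the Tnfsf13b values was not tested.

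Tnfsf13, which encodes APRIL, had 8 counts in PBS B cells, at an FPKM of 0.09, and 0 counts in SJMHE1 B cells. A count of 0 allows up to 3 counts. The 8 counts, taken as exact and scaled by the library totals, stood at 2.83 times that floor of the SJMHE1 library, and with the counting error of both libraries the interval of the log2 ratio reached up to -0.85. The value of this gene on its own is uncertain. It spans 69682846 to 69685784 of chromosome 11 (minus strand), inside the read-through gene Tnfsfm13, which joins Tnfsf12 with Tnfsf13, and 57.3% of all windows of 50 bases in its transcripts also occur in another gene. Tnfsfm13 had 18 counts in PBS B cells and 35 in SJMHE1 B cells, and Tnfsf12 had 0 counts in both. Summed over these 3 genes, the counts were 26 and 35, a log2 ratio of 0.35 (-0.43 to 1.14) with the direction opposite to that of Tnfsf13 alone and within counting error. The antisense gene Tnfsf13os, which overlaps on the other strand, had 13 and 0 counts. How the counting shared reads in this region is not given in the sources used here.

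Cd40lg, which encodes CD40 ligand and is known from activated T cells, had 109 counts and an FPKM of 1.59 in PBS B cells, and 23 counts and an FPKM of 0.30 in SJMHE1 B cells. The log2 ratio was -2.41 (-3.04 to -1.67), past the threshold in the whole interval. T cell markers differed in the same direction. Cd3e had an FPKM of 1.77 and 0.39, and Cd4 of 4.25 and 1.28, with log2 ratios of -2.18 and -1.73. The 10 T cell markers had a median log2 ratio of -2.20. Their part in the Cd40lg result was not tested. The lymphotoxin genes Lta and Ltb, whose products act through another receptor of the non-canonical pathway, had log2 ratios of 0.31 and 0.26, and Ltb was abundant, with an FPKM of 197 and 236. Their receptor gene Ltbr had an FPKM of 0.63 and 0.61 and did not pass the filter. Cd27, another receptor gene of this list, had an FPKM of 2.85 and 1.81, with a log2 ratio of -0.65 (-0.89 to -0.41). Of the other receptors and ligands, 5 were compared, 2 with a ratio above 0 and 3 below, and the median was that of Cd27.

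**Figure D2:**
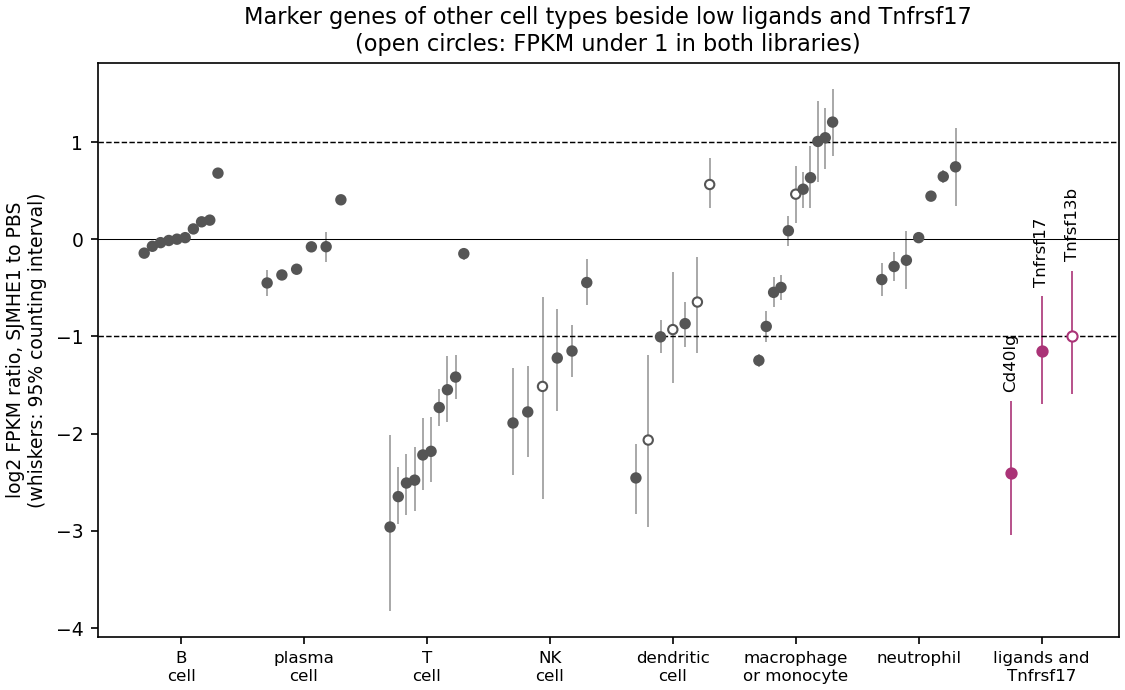
Log2 FPKM ratio, SJMHE1 to PBS, of each marker gene by cell type (grey) and of Cd40lg, Tnfrsf17 and Tnfsf13b (purple), with 95% counting intervals as whiskers, dashed lines at 1 and -1, and open circles for genes with an FPKM under 1 in both libraries. Cd40lg at -2.41 sits in the range of the T cell markers, -2.96 to -0.15, while the B cell markers lie between -0.14 and 0.68.

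Among the 10 genes, both TRAF adaptors had higher levels in SJMHE1 B cells. Traf2 had an FPKM of 11.4 with 3199 counts in PBS B cells and 14.4 with 4270 counts in SJMHE1 B cells. This gave a log2 ratio of 0.33 (0.27 to 0.40), 1.26 times the PBS level, and 87.4% of all genes compared had a lower ratio. Traf3, whose product is the inhibitor of the pathway that is degraded on stimulation, had an FPKM of 17.6 with 7100 counts and of 20.4 with 8698 counts. Its log2 ratio was 0.21 (0.17 to 0.26), and the ratio of Traf3 to Traf2 within a library was 1.54 (1.48 to 1.61) in PBS B cells and 1.41 (1.36 to 1.47) in SJMHE1 B cells. Traf3 lies on the plus strand of chromosome 12 from 111166370 to 111267153, with 13 blocks of exons in GENCODE M21, and Traf2 spans 25517982 to 25546940 of chromosome 2 (minus strand), with 10 blocks.

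Birc3, which encodes the ubiquitin ligase cIAP2, had an FPKM of 56.2 with 15463 counts in PBS B cells and 54.0 with 15709 counts in SJMHE1 B cells. The log2 ratio was -0.06 (-0.09 to -0.03), and since it turned to 0.02 (-0.0085 to 0.056) with rescaling, no direction is given for this gene. Birc3 spans 7848699 to 7873170 of chromosome 9 (minus strand). In its transcripts, 7.38% of the windows of 50 bases also occur in another gene, mostly Gm7019, which had 109 and 125 counts. Birc2, which encodes cIAP1, had an FPKM of 24.3 and 25.3, with a log2 ratio of 0.06 (0.01 to 0.11), so that Birc3 stood at 2.32 times Birc2 in PBS B cells and at 2.14 times in SJMHE1 B cells on the FPKM scale.

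Map3k14, which encodes NIK, the kinase of the non-canonical pathway, had the lowest log2 ratio of the 8 genes compared. Its FPKM was 12.3 with 4417 counts in PBS B cells and 11.4 with 4321 counts in SJMHE1 B cells. This gave a log2 ratio of -0.11 (-0.17 to -0.05), 0.92 times the PBS level. With rescaling the ratio was -0.031 (-0.092 to 0.030), which is within counting error, so no direction is given for Map3k14 on its own. The gene spans 103219762 to 103267472 of chromosome 11 (minus strand). Traf2 stood below Map3k14 in PBS B cells, at 0.93 times its FPKM (0.89 to 0.97), and above it in SJMHE1 B cells, at 1.27 times (1.22 to 1.32). The ratio of Traf3 to Map3k14 was 1.43 (1.38 to 1.49) and 1.79 (1.73 to 1.86). The RNA of both adaptors was thus higher relative to that of the kinase in SJMHE1 B cells, and these ratios within a library do not depend on how the libraries were scaled. NIK is controlled mainly through its protein, which was not measured in these data.

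Nfkb2 had the highest log2 ratio of the 8 genes compared. Its FPKM was 46.0 with 11584 counts in PBS B cells and 60.2 with 16035 counts in SJMHE1 B cells. Its log2 ratio was 0.39 (0.35 to 0.42), 1.31 times the PBS level, and 89.6% of all genes compared had a lower ratio. Nfkb2 stood below Birc3 in PBS B cells, at 0.82 times its FPKM (0.80 to 0.84), and above it in SJMHE1 B cells, at 1.12 times (1.09 to 1.14). The gene lies on the plus strand of chromosome 19 from 46304320 to 46312385, and its 20 blocks of exons overlap those of Psd on the other strand, which had an FPKM of 3.74 and 3.68. Whether the counting used strand is not given in the sources used here. Its partner Relb did not share the difference, with an FPKM of 17.7 and 16.3 and a log2 ratio of -0.12 (-0.18 to -0.05). The ratio of Nfkb2 to Relb was 2.60 (2.51 to 2.70) in PBS B cells and 3.69 (3.56 to 3.83) in SJMHE1 B cells.

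By FPKM, the order of the 10 genes in PBS B cells was Tnfrsf13c, Tnfrsf13b, Birc3, Nfkb2, Cd40, Traf3, Map3k14, Traf2, Tnfsf13b and Tnfsf13. In the SJMHE1 library the order was the same but for the 2 exchanges given above, of Nfkb2 with Birc3 and of Traf2 with Map3k14. The counting intervals of neighbours in this order overlapped only for Tnfsf13b and Tnfsf13 in PBS B cells. With 1 library per group, no spread between mice can be set against these orders.

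**Figure D3:**
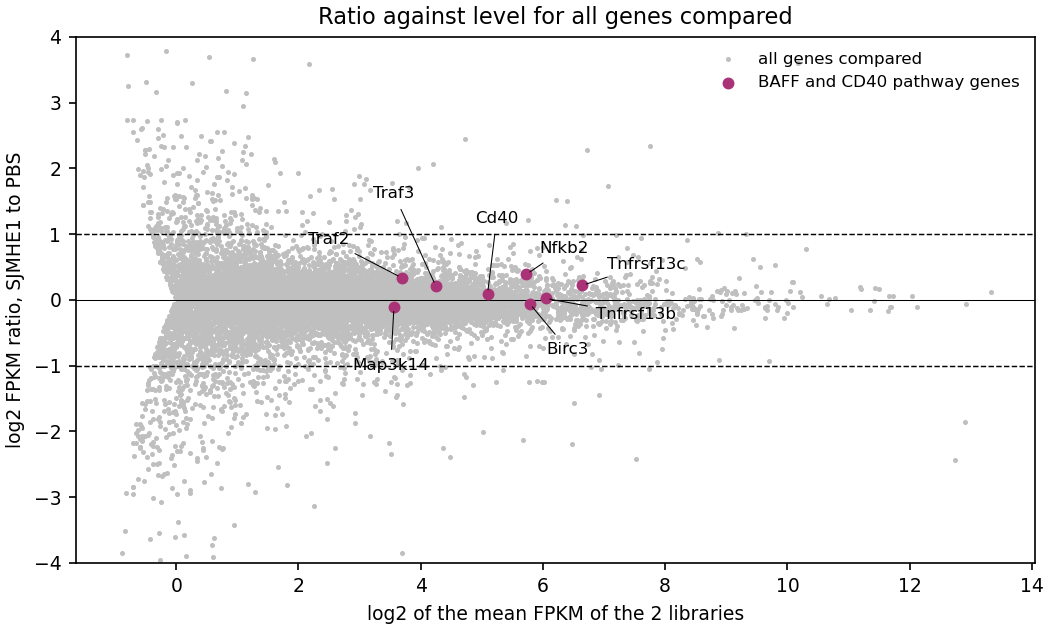
Log2 FPKM ratio, SJMHE1 to PBS, against the log2 of the mean FPKM for the 12433 genes compared (grey), with the 8 BAFF and CD40 pathway genes that passed the filter (purple) and dashed lines at 1 and -1; 17 genes with a ratio past 4 in size lie outside the axis. The 8 genes sit inside the dashed lines, with Nfkb2 highest at 0.39 and Map3k14 lowest at -0.11.

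Of 10 other genes of the non-canonical pathway, 9 were compared and 0 were past the threshold, and the median log2 ratio was 0.04, with 6 genes above and 3 below 0. Tbk1, a kinase that restrains NIK, had a log2 ratio of 0.26, Traf1, an adaptor induced by CD40, of 0.24, and Chuk, the kinase IKKα that acts on the Nfkb2 product, of 0.23. Chuk had an FPKM of 21.9 and 25.6. The 3 genes below 0 were Relb, given above, and the adaptors Traf6, at -0.13 (-0.20 to -0.07), and Traf5, at -0.03 (-0.08 to 0.03). Rescaling to equal FPKM sums adds 0.083 to each ratio. This brings 0 into the intervals of Relb and Traf6 and turns Traf5 above 0, so no direction is given for these 3.

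All 17 genes of the canonical pathway were compared and 0 were past the threshold, 7 with a ratio above 0 and 10 below, with a median of -0.12. Tnfaip3, which encodes the feedback inhibitor A20, had an FPKM of 84.6 in PBS B cells and 57.1 in SJMHE1 B cells, a log2 ratio of -0.57 (-0.59 to -0.54). Rel, which encodes c-Rel, had an FPKM of 105 and 78.1, a log2 ratio of -0.42 (-0.44 to -0.40). Tab1, which encodes an adaptor of the kinase TAK1, had a ratio of -0.52. Within a library, Rel stood at 2.28 times the level of Nfkb2 in PBS B cells and at 1.3 times in SJMHE1 B cells. Nfkb1, the canonical relative of Nfkb2, had a log2 ratio of 0.04 (0.01 to 0.07), and the ratio of Nfkb2 to Nfkb1 was 1.85 and 2.36.

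Genes that set B cell survival lay on both sides of 0. Of the 11 genes in this list, which also holds Bcl2l11, Bad and Bax, whose products promote cell death, 8 had a ratio above 0 and the median was 0.09. Mcl1, which encodes a survival factor of the BCL2 family, had an FPKM of 202 and 213 with a log2 ratio of 0.08, and Bcl2 had an FPKM of 14.4 and 15.9 with a ratio of 0.14. Pim1, which encodes a survival kinase, was past the threshold, with an FPKM of 90.9 in PBS B cells and 38.3 in SJMHE1 B cells and a log2 ratio of -1.25 (-1.29 to -1.21), while its relative Pim2 had a ratio of 0.12. The ratios of Bcl2l11 and Bad were 0.12 and 0.21. Bcl2l1 had a ratio of -0.24 (-0.48 to -0.0053) at 315 and 282 counts, and with rescaling its interval takes in 0. Bcl2a1a had a ratio of 0.27 (-0.07 to 0.59) at 138 and 175 counts, which is within counting error. Bcl2a1a is one of several near-identical copies, and its level on its own is uncertain.

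Of the 13 genes of the CD40 response, 12 were compared, 3 with a ratio above 0 and 9 below, and the median was -0.34. Ccr7, a chemokine receptor that guides B cells to the T cell zone, had an FPKM of 142 and 80.5 with a log2 ratio of -0.82 (-0.85 to -0.78), and the activation marker Cd83 an FPKM of 220 and 140 with a ratio of -0.65. Icosl, which encodes a costimulatory ligand for T cells, went the other way, with an FPKM of 72.1 and 101 and a log2 ratio of 0.49 (0.46 to 0.51). Ccl22, a chemokine with 56 and 10 counts, did not pass the filter.

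**Figure D4:**
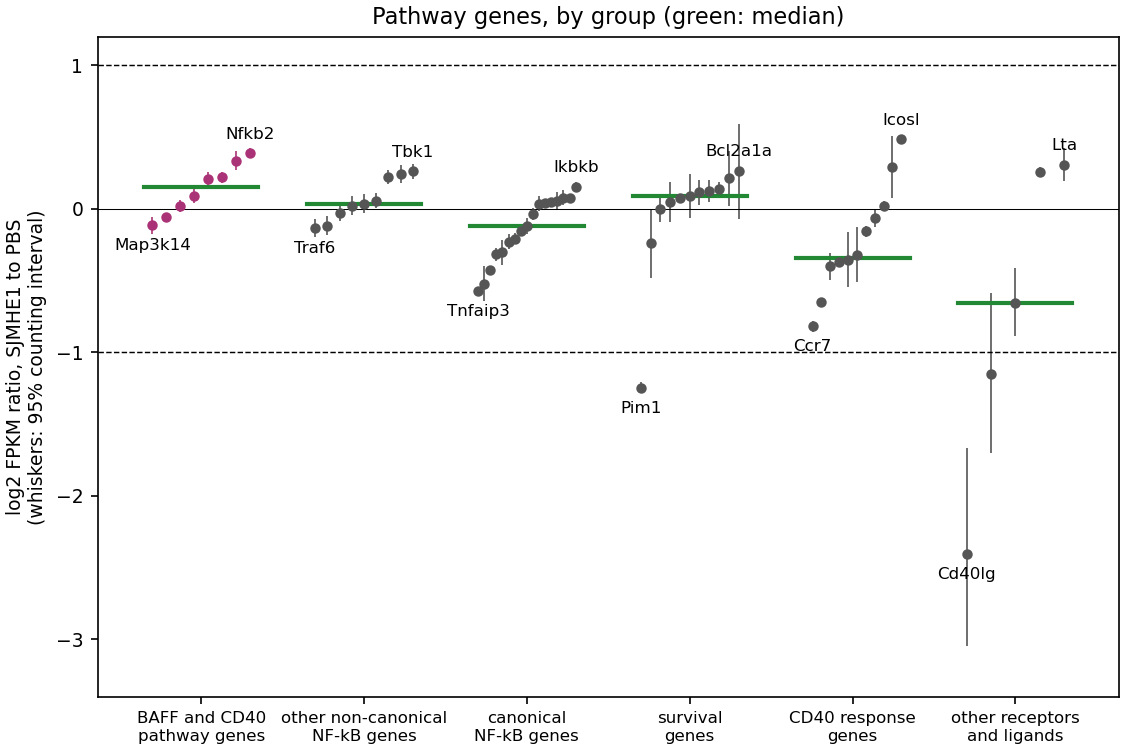
Log2 FPKM ratio, SJMHE1 to PBS, of the genes compared in each group, with 95% counting intervals as whiskers, green lines at the group medians and dashed lines at 1 and -1; the lowest and highest gene shown of each group are named, and 1 CD40 response gene that counts in its median is not shown. The medians run from 0.15 for the BAFF and CD40 pathway genes to -0.65 for the other receptors and ligands. The latter rests on 5 genes and is the ratio of Cd27. Pim1, Tnfrsf17 and Cd40lg lie below -1.

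By the KEGG annotation of the deposited table, 8 of the 10 genes belong to NF-kappa B signaling, which has 95 genes in the table. Of its 79 genes compared, 1 was higher and 4 were lower past the threshold, beside 2.43% and 3.57% of all genes compared. Of the 4, Prkcq and Cd40lg passed the filter only through the PBS library, where they were higher, so this number depends on the filter. None of the 5 (Cd14, Prkcq, Il1b, Lat and Cd40lg) is among the 10 genes. Cd14 is one of the macrophage and monocyte markers, and Cd40lg is set beside the T cell markers above. The part of other cell types in these 5 results was not tested. The 7 of the 10 genes that were compared in this pathway had a median log2 ratio of 0.21, and the pathway's other genes had a median of -0.03.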

How the data were processed

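The authors deposited 1 table with whole-number read counts per gene, which are not normalized, and with FPKM values, rounded to 2 decimals, for 27088 genes. The submitters' processing notes name HISAT2, StringTie and the build mm10, and which tool made which column is not given in the sources used here. The identifiers of 27025 genes were found in GENCODE M21 (GRCm38), with the same coordinates for 8 of the 10 genes described. For 2 columns of per-sample values, no name of a sample matched the header. They were left out, so the comparisons with the Control group were not made.

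The members and gene lists were chosen with earlier results of these data known, and the KEGG pathways and TNF superfamily genes were added after the data were seen. The genes named are every member, list genes past the threshold or among the 3 largest ratios of their list, and others chosen after their values were seen, and the result of 1 list gene is not reported here. The model for counts could not be fitted with 1 library per group. Ratios were log2(SJMHE1/PBS) of FPKM without a pseudocount. Intervals at the 95% level were exact Clopper-Pearson intervals of the counts, shifted to the FPKM scale, or exact Poisson intervals of single levels, and reads without molecular identifiers are not independent molecules. The scripts were tested on simulated data. Alternatives were CPM, FPKM rescaled to sum to 1000000, ratios centred on their median, pseudocounts of 0.1 and 1, and other filters. Calculations used scipy 1.17.1, pandas 2.3.3 and numpy 2.4.6 under Python 3.11.15, and plots matplotlib 3.10.9.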

Additional observations from a re-analysis of the deposited data

How the results depend on the processing

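No paired analysis was possible because the PBS and SJMHE1 groups hold 1 library apiece and no test was run. Leaving out a library was not possible for the same reason, and the alternatives for the Control comparisons were not run. No member with a finite ratio was past the threshold under any of the 7 alternatives for scale, pseudocount and filter. Rescaling to equal FPKM sums adds the same amount to each ratio by construction, and the median of all genes went from -0.01 to 0.07. It moved the median of the BAFF and CD40 pathway genes to 0.23, that of the other non-canonical genes to 0.12 and that of the canonical genes to -0.035. It turned Birc3 to 0.02 and brought 0 into the counting intervals of Birc3 and Map3k14. No other of the 8 genes changed sign under the 5 alternatives for scale and pseudocount. Without a filter, the median of the members with a finite ratio, which leaves out Tnfsf13, was 0.090, that of the other receptors and ligands was -0.35, 1 non-canonical gene and 2 CD40 response genes were lower past the threshold, and 1367 genes were higher and 2018 lower among all genes, by construction from more genes. With the minimum of 1 FPKM required of each library, the other receptors and ligands had a median of 0.26 and 0 genes lower past the threshold, since Cd40lg and Tnfrsf17 drop out, and all genes gave 101 higher and 151 lower. With a pseudocount of 1, 0 of the other receptors and ligands were lower, and all genes gave 100 higher and 146 lower. Protein-coding genes alone gave 89 and 171, in place of 302 and 444. Depth limits Tnfsf13b and Tnfsf13, which had 62 counts or fewer.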

Other observations

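Beyond BAFF, APRIL and CD40 ligand, the table lists further genes of the TNF superfamily, which were collected by symbol after the data were seen. Of 16 ligand genes, 7 were compared, and 2 of all 16, Lta and Ltb, had an FPKM above 10 in both libraries. Of the 7 compared, Tnfsf9, which encodes the ligand of 4-1BB, was the 1 higher past the threshold. It had an FPKM of 0.54 (39 counts) in the PBS library and 1.34 (101 counts) in the SJMHE1 library. Its log2 ratio was 1.31 (0.74 to 1.86). Cd40lg was the 1 of the 7 lower past the threshold. Tnfsf9 passed the filter only through the SJMHE1 library, and Cd40lg only through the PBS library, so both results depend on the filter. Ligands with an FPKM under 1 in both libraries also had ratios past the threshold, such as Tnfsf18 at 1.42 with 21 and 58 counts. Tnfsf8 was at -3.56 with 149 and 14 counts, and Fasl at -3.54 with 38 and 4 counts. Beside these ligands, the 10 T cell markers had a median log2 ratio of -2.20, and the 5 NK cell markers compared of -1.22. The part of T and NK cells in the ligand values was not tested. Among all genes compared, 2.43% were higher and 3.57% lower past the threshold. Tnf had an FPKM of 8.25 and 5.27, a log2 ratio of -0.65 (-0.81 to -0.48).

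Of 23 receptor genes, 17 were compared, with a median log2 ratio of -0.36, 6 above and 11 below 0. The 3 receptors with an FPKM above 10 in both libraries were Tnfrsf13c, Tnfrsf13b and Cd40. The TNF receptor gene Tnfrsf1b had an FPKM of 9.36 and 6.81, a log2 ratio of -0.46 (-0.56 to -0.36). Past the threshold, 0 receptors were higher and 3 were lower, beside the same 2.43% and 3.57% of all genes. These 3 had low levels and passed the filter only through the PBS library, where they were higher, so their number depends on the filter. They were Tnfrsf17, Tnfrsf8, with an FPKM of 1.16 and 0.36, and Tnfrsf19, with an FPKM of 1.14 and 0.53.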
